A study of Mus musculus with 5 samples.

Results

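The let-7 family was followed through 5 mouse small RNA libraries, from fetal male germ cells to the zygote. Its members here are the 5p arms of 9 genes or gene groups, taken by name (mmu-let-7a-5p, mmu-let-7b-5p, mmu-let-7c-5p, mmu-let-7d-5p, mmu-let-7e-5p, mmu-let-7f-5p, mmu-let-7g-5p, mmu-let-7i-5p and mmu-miR-98-5p) out of 1316 miRNA entries in the tables. The species prefix is left out from here on. All 9 had at least 100 reads in every library, and the fewest were the 259.8 reads of miR-98-5p in primordial germ cells, so no member was lost to a filter on low values. Primordial germ cells, the fetal precursors of sperm, were pulled with anti-CD15 magnetic beads from male gonads of CD-1 fetuses at 13.5 days post coitum. Spermatogonia, the mitotic germ cells of the young testis, came from CD-1 testes 8.5 days after birth, as the cells still in suspension once somatic cells had settled and adhered. Spermatozoa (sperm) came from the cauda epididymis and vas deferens of mature CD-1 males, through a Percoll gradient and a hypo-osmotic shock. Metaphase II oocytes (15210 cells) came from superovulated C57BL/6 females aged 4 to 5 weeks, and zygotes (15416 cells, 15 to 18 hours after fertilization) from such females mated with DBA/6J males. Cumulus cells and zona pellucida were removed from both. The labels name no mutation or transgene in any sample, and no treatment beyond the gonadotropins (PMSG, then HCG) given to the females. There was 1 library per cell type, so differences between cell types could not be set against replicates and were not tested. Preparation and age change together with cell type and cannot be told apart from it. Strain and sex are shared by the libraries of male germ cells, all from CD-1 males. They differ between these and the oocyte and zygote, and there they cannot be told apart from cell type either. Oocytes and zygotes share the strain of the females, but zygotes also have DBA/6J fathers.

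MicroRNAs of this family are known as regulators of developmental timing. Each is cut from a hairpin precursor, is loaded into an Argonaute protein and pairs with target mRNAs mainly through its seed, the bases from position 2 to 8. Processing of let-7 precursors is known to be blocked by LIN28 proteins, which are expressed in stem cells and early germ cells, and mature let-7 in turn represses Lin28 and growth genes such as Hmga2 and the Ras genes. In oocytes, miRNAs as a class are known to repress their targets only weakly.

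The mature sequences are shown because they define the family and show how little separates its members. They are RefSeq sequences (GRCm38.p6), found by name for all 9 members, with the seed in capitals.
let-7a-5p: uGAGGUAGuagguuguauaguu
let-7b-5p: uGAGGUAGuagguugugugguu
let-7c-5p: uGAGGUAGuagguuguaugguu
let-7d-5p: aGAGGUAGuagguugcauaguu
let-7e-5p: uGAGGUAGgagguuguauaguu
let-7f-5p: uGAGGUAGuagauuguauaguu
let-7g-5p: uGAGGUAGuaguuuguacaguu
let-7i-5p: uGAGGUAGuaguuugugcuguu
miR-98-5p: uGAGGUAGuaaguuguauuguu

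All 9 are 22 nucleotides long, and all share the seed GAGGUAG. Among the 1679 mature names with a sequence there, this seed occurs in 11: the 9 members, let-7k and miR-1961, the last of which is not analysed here. Counted from 1 at the 5′ end, and with the let-7a base first, let-7c differs from let-7a only by A19G, let-7f only by G12A and let-7e only by U9G. let-7b carries A17G and A19G, let-7d U1A and U16C, let-7g G12U and U18C, and miR-98 G11A and A19U. let-7i is the most distant from let-7a, with G12U, A17G, U18C and A19U. Of the 36 pairs of members 4 differ at 1 base and 10 at 2 bases.

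These small distances bear on the counts. Reads were 18 to 32 nucleotides long, and let-7a and let-7c are the pair that an 18-base read without a mismatch cannot separate, since they differ first at base 19. No 18-base stretch of the other 7 members occurs in another mature sequence of the table. The deposited reads of let-7f-5p nevertheless have a fractional part in primordial germ cells, spermatozoa, oocyte and zygote, as do those of 8 or 9 of the 9 members in each of these 4 libraries. How reads with several matches were shared is not given in the sources used here. Sharing among members moves single members but not their sum. Summed over the 9 members, primordial germ cells had 77856.3 reads and spermatogonia 938511, with 135823 in sperm, 415945 in oocytes and 559306 in zygotes.

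Levels are given in RPM, reads per 1000000 miRNA reads of the library. Primordial germ cells had 12004614 miRNA reads and spermatogonia 10657432, with 1216358 in sperm, 2010462 in oocytes and 2327081 in zygotes. Brackets after a value hold the exact 95% interval of its reads, a measure of counting error alone, since PCR copies are not independent molecules. In pooled cells, fewer cells of a type and less RNA per cell cannot be told apart. Marker lists for primordial germ cells and for late spermatogenic cells were highest in the libraries labelled as primordial germ cells and spermatozoa. The list of late spermatogenic cells, with miR-34c-5p, summed to 232206 RPM in sperm and to between 918.3 and 8254 in the others. The list of primordial germ and embryonic stem cells, with miR-291a-3p and miR-295-3p, summed to 25348 RPM in primordial germ cells and, next, to 8482 in zygotes. No marker list was used for spermatogonia, oocytes or zygotes, so these labels were not checked.

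As a family, let-7 was lowest in primordial germ cells and highest in the zygote. It took 0.649% of miRNA reads in primordial germ cells [0.644 to 0.653], 8.81% in spermatogonia [8.79 to 8.82], 11.2% in sperm [11.1 to 11.2], 20.7% in oocytes [20.6 to 20.7] and 24.0% in zygotes [24.0 to 24.1]. The zygote thus stood 37.1-fold above primordial germ cells [36.8 to 37.3] per miRNA read. In primordial germ cells none of the members was among the 50 most abundant miRNAs, and 28 other miRNAs each outnumbered the whole family. In spermatozoa 5 members and in oocyte and zygote 7 members were among those 50. In the oocyte and the zygote no other miRNA had as many reads as the family.

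The order of the libraries depends on the denominator. MicroRNAs took 45.2% of the reads of the 4 small RNA classes in the fetal library and 40.5% of those of spermatogonia, against 4.65% to 5.57% in sperm, oocyte and zygote. Per 1000000 reads of all 4 classes the family stood at 2931 in primordial germ cells, 35625 in spermatogonia, 6223 in sperm, 9619 in oocytes and 12937 in zygotes. On that scale spermatogonia had the highest family level, and primordial germ cells still the lowest. The factor of the authors' normalised column places spermatogonia between the oocyte and the zygote.

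**Figure D1:**
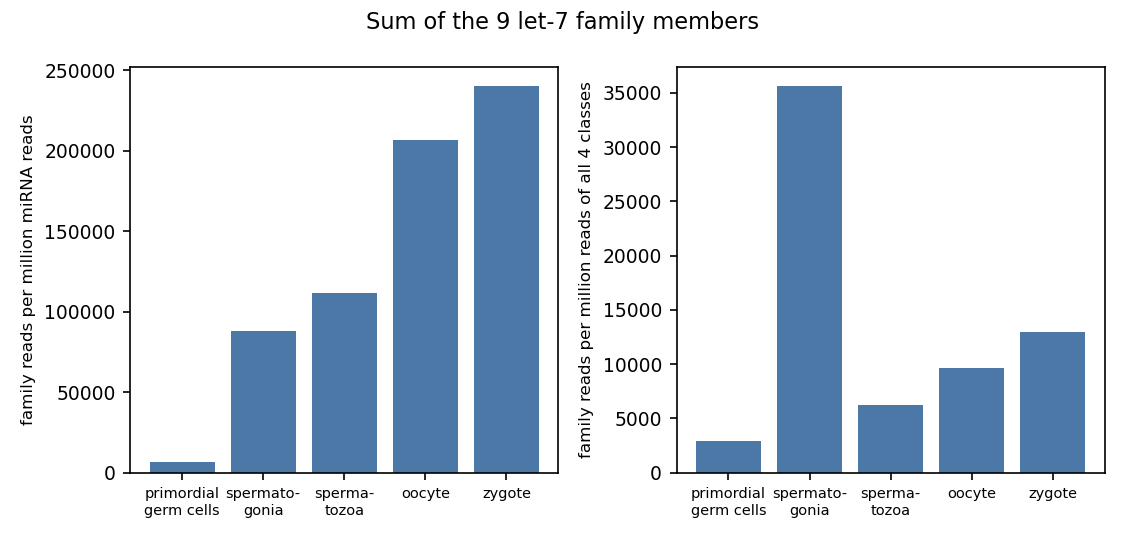
Summed reads of the 9 let-7 members in the 5 libraries (1 bar per library, no replicates), scaled to 1000000 miRNA reads on the left and to 1000000 reads of the miRNA, snoRNA, piRNA and endo-siRNA tables together on the right. The left bars run from 6486 in primordial germ cells to 240347 in zygotes, while on the right spermatogonia stand highest at 35625.

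Among the members, let-7f-5p was the most abundant in every library. It stood at 2519 RPM in primordial germ cells, 28403 in spermatogonia, 52047 in sperm, 122192 in oocytes and 148063 in zygotes, where no other miRNA entry had more reads. let-7a-5p, the member whose sequence is shared with worms and humans, went from 1536 RPM in primordial germ cells through 15420 in spermatogonia and 16790 in sperm to 30434 in oocytes and 32884 in zygotes. let-7g-5p followed the same order, with 1284, 9917, 19887, 25312 and 30243 RPM. These 3 members were thus lowest in fetal germ cells and highest in the zygote, with spermatogonia and spermatozoa between.

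let-7i-5p (122.7, 2179, 4416, 4966 and 5561 RPM in that order of libraries) and miR-98-5p (21.6, 332.9, 879.7, 1348 and 1561 RPM) had the same order at lower levels. miR-98-5p was the scarcest member in primordial germ cells and spermatogonia, and let-7e-5p in the other 3 libraries. So 5 of the 9 members ordered the libraries as the family sum does.

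The other 4 members had other orders. In all 4 spermatogonia stood above spermatozoa, and in let-7c-5p and let-7e-5p the oocyte also stood above the zygote. let-7c-5p stood at 706.0 RPM in primordial germ cells, 24060 in spermatogonia, 13721 in sperm, 16209 in oocytes and 15326 in zygotes, so spermatogonia had the most. let-7e-5p also peaked in spermatogonia, at 2130 RPM, against 201.0 in primordial germ cells, 346.1 in sperm, 825.8 in oocytes and 572.2 in zygotes. let-7e-5p was the member that varied least across the libraries, with a highest to lowest ratio of 10.6, and let-7b-5p varied most, with 79.9.

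let-7b-5p had 39.7 RPM in primordial germ cells, 2656 in spermatogonia, 2086 in sperm, 2992 in oocytes and 3172 in zygotes. let-7d-5p had 55.8, 2963, 1491, 2613 and 2965 RPM in the same order. Its levels in spermatogonia and zygote were the only neighbours in any member's order of libraries, of 36 such pairs, whose counting intervals overlapped. Whether the other neighbours differ beyond the spread between samples cannot be said without replicates.

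**Figure D2:**
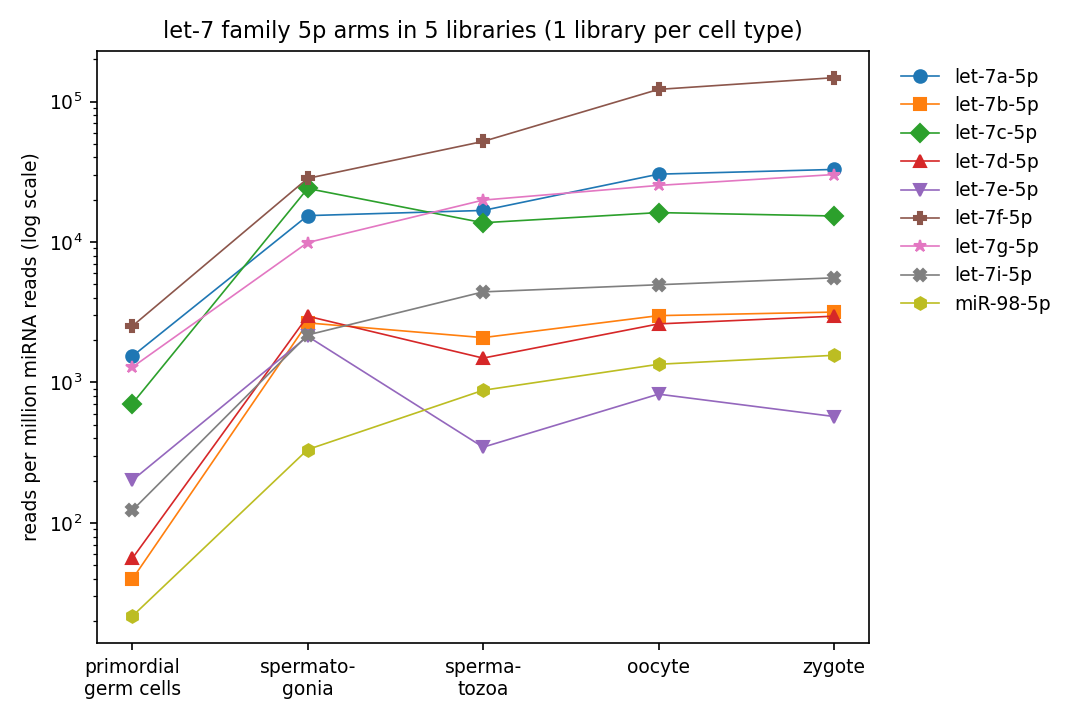
Level of each of the 9 members in each library in RPM, on a log axis; each symbol is 1 library and lines only join the points of a member. let-7f-5p lies on top throughout, from 2519 to 148063, and let-7b-5p, let-7c-5p, let-7d-5p and let-7e-5p stand higher in spermatogonia than in spermatozoa.

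The make-up of the family is free of any scaling between libraries. let-7f-5p made up 38.8% of family reads in primordial germ cells [38.5 to 39.2], 32.3% in spermatogonia [32.2 to 32.3], 46.6% in sperm [46.3 to 46.9], 59.1% in oocytes [58.9 to 59.2] and 61.6% in zygotes [61.5 to 61.7]. let-7a-5p made up 23.7%, 17.5%, 15.0%, 14.7% and 13.7% in the same order. The ratio of let-7a-5p to let-7f-5p, which differ at 1 base, was 0.610 in primordial germ cells, 0.543 in spermatogonia, 0.323 in sperm, 0.249 in oocytes and 0.222 in zygotes. Per family read, the oocyte and the zygote were therefore the libraries with the most let-7f.

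Spermatogonia stood out by let-7c-5p, which made up 27.3% of their family reads [27.2 to 27.4] against 10.9% in primordial germ cells, 12.3% in sperm, 7.83% in oocytes and 6.38% in zygotes. There let-7c-5p outnumbered let-7a-5p by 1.56 [1.55 to 1.57], while in the other libraries this ratio was between 0.460 and 0.817. let-7e-5p made up 3.10% of family reads in fetal germ cells and 2.42% of those of spermatogonia, against 0.310% in sperm, 0.399% in oocytes and 0.238% in zygotes. The share of let-7g-5p was highest in primordial germ cells at 19.8% and in spermatozoa at 17.8%, and that of let-7i-5p in spermatozoa at 3.95%. Ranked by reads within the library, oocyte and zygote gave the same order of all 9 members.

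**Figure D3:**
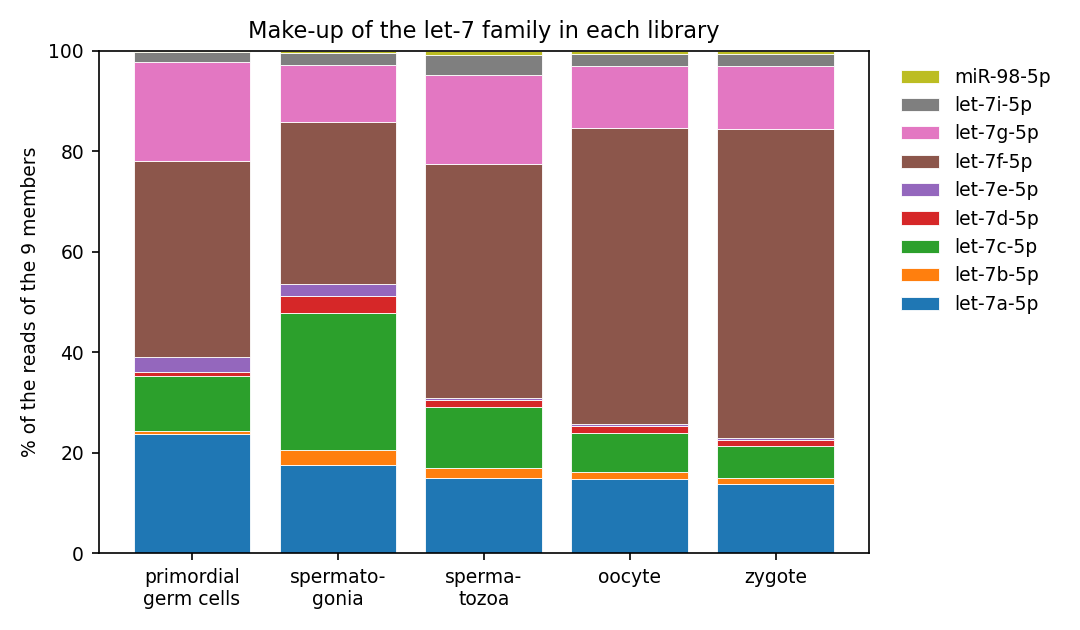
Percent of the reads of the 9 members that each member took, stacked, 1 bar per library. The let-7f-5p block grows from 32.3% in spermatogonia to 61.6% in zygotes, and the let-7c-5p block is widest in spermatogonia at 27.3%.

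Spermatogonia were set against primordial germ cells for the passage from fetal to postnatal male germ cells. All 9 members were at least 4-fold higher in spermatogonia, as were 25.7% of the 530 measured miRNAs, those whose reads in both libraries summed to 100 or more. The family sum was 13.6-fold higher [13.5 to 13.7], and the members had a median log2 ratio of 3.94 beside 0.65 for all measured miRNAs. The lowest ratio was that of let-7g-5p at 7.72-fold [7.60 to 7.86], then let-7a-5p at 10.04-fold, let-7e-5p at 10.6-fold and let-7f-5p at 11.3-fold. The highest were let-7c-5p at 34.1-fold [33.4 to 34.8], let-7d-5p at 53.1-fold [49.2 to 57.4] and let-7b-5p at 66.9-fold [61.1 to 73.3]. Set against the sum of the other 8 members, let-7b-5p was 5.05-fold higher [4.61 to 5.53], let-7d-5p 4.01-fold and let-7c-5p 3.08-fold, while let-7g-5p was 1.94-fold lower [1.91 to 1.98]. miR-98-5p, the scarcest member in primordial germ cells, stood at 15.4-fold [13.5 to 17.5].

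Under the other scalings tried the family ratio lay between 8.28-fold, with the factor of the authors' normalised column, and 14.8-fold, with totals that leave out the members. It was 8.70-fold with edgeR's TMM factors and 8.88-fold with DESeq2's size factors, which lower every log2 ratio of this comparison by 0.64 and 0.61. Markers of some other cell types were higher in the same library. The smooth muscle and peritubular list, with miR-143-3p and miR-145a-5p, summed to 233110 RPM in spermatogonia against 9261 in primordial germ cells. Nearly all of both sums was miR-143-3p, with 230893 and 9230 RPM. All 4 measured entries of the list were at least 4-fold higher, as were 25.7% of all measured miRNAs. The endothelial list summed to 9053 against 1051 RPM and the erythroid list to 1774 against 187.8 RPM. The gonadal soma list summed to 28098 against 11387 RPM, with 2 of 3 measured entries at least 4-fold higher, miR-202-5p (8.41-fold) and miR-202-3p (39.1-fold). All members of these 4 lists had reads in both libraries. The leukocyte list had a lower sum in spermatogonia, 303.5 against 588.4 RPM, but 2 of its 4 measured entries were at least 4-fold higher and 0 lower, with a median log2 ratio of 1.34. The epithelial list summed to 1099 against 1480 RPM, with 0 of 6 entries past 4-fold. The neuron list summed to 288.0 against 3860 RPM, with 2 of 4 at least 4-fold lower, as were 12.6% of all measured miRNAs. The part of these lists in the let-7 difference was not tested.

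Spermatozoa were then set against spermatogonia. None of the 9 members was at least 4-fold higher in spermatozoa (14.9% of 471 measured miRNAs were) and 1, let-7e-5p, was at least 4-fold lower, where 37.2% of measured miRNAs were. The median log2 ratio was 0.12 for the members beside -1.10 for all measured miRNAs. let-7e-5p was 6.16-fold lower [5.59 to 6.79], let-7d-5p 1.99-fold lower [1.90 to 2.08], let-7c-5p 1.75-fold lower [1.73 to 1.78] and let-7b-5p 1.27-fold lower. In the other direction let-7f-5p was 1.83-fold higher [1.82 to 1.85], let-7g-5p 2.01-fold, let-7i-5p 2.03-fold and miR-98-5p 2.64-fold [2.47 to 2.83], while let-7a-5p stood at 1.09-fold [1.07 to 1.10].

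The family sum was 1.27-fold higher in spermatozoa per miRNA read [1.26 to 1.28], and without let-7f-5p the ratio was 0.999. Scaled to all 4 classes the direction turned, and spermatozoa had 0.175 of the spermatogonial level, with all 9 members lower and 5 of them past 4-fold, as were 76.0% of measured miRNAs; 0 were 4-fold higher, beside 3.82% of all. With the factor of the authors' normalised column the ratio was 0.290, again with 5 members past 4-fold on the low side, beside 66.2% of all, and 0 on the high side, beside 5.31%. These scalings lower every log2 ratio by 2.86 and 2.13. What does not depend on the scaling is the difference between members: relative to the other 8, let-7e-5p was 7.97-fold lower in spermatozoa [7.24 to 8.80] and miR-98-5p 2.09-fold higher [1.95 to 2.24]. In the same libraries the epithelial list, which includes the miR-200 family, summed to 23200 RPM in sperm against 1099 and the erythroid list to 18886 against 1774, with 6 of 6 and 3 of 3 entries past 4-fold. The leukocyte list summed to 3095 against 303.5 RPM, with 4 of 5 past 4-fold, and the neuron list to 1643 against 288.0 RPM, with 4 of 4. Every entry of these 4 lists had reads in spermatozoa, and 14.9% of all measured miRNAs were at least 4-fold higher there. Other lists were lower there. The endothelial list summed to 374.9 against 9053 RPM, with 2 of 2 entries past 4-fold, and the gonadal soma list to 7416 against 28098 RPM, with 2 of 3 measured past 4-fold and miR-383-5p at 0 reads in sperm. The smooth muscle list, nearly all miR-143-3p (230279 and 230893 RPM), summed to 230783 against 233110 RPM. Of its entries 1 of 4 was at least 4-fold lower, beside 37.2% of all measured miRNAs. The part of these lists in the result was not tested.

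**Figure D4:**
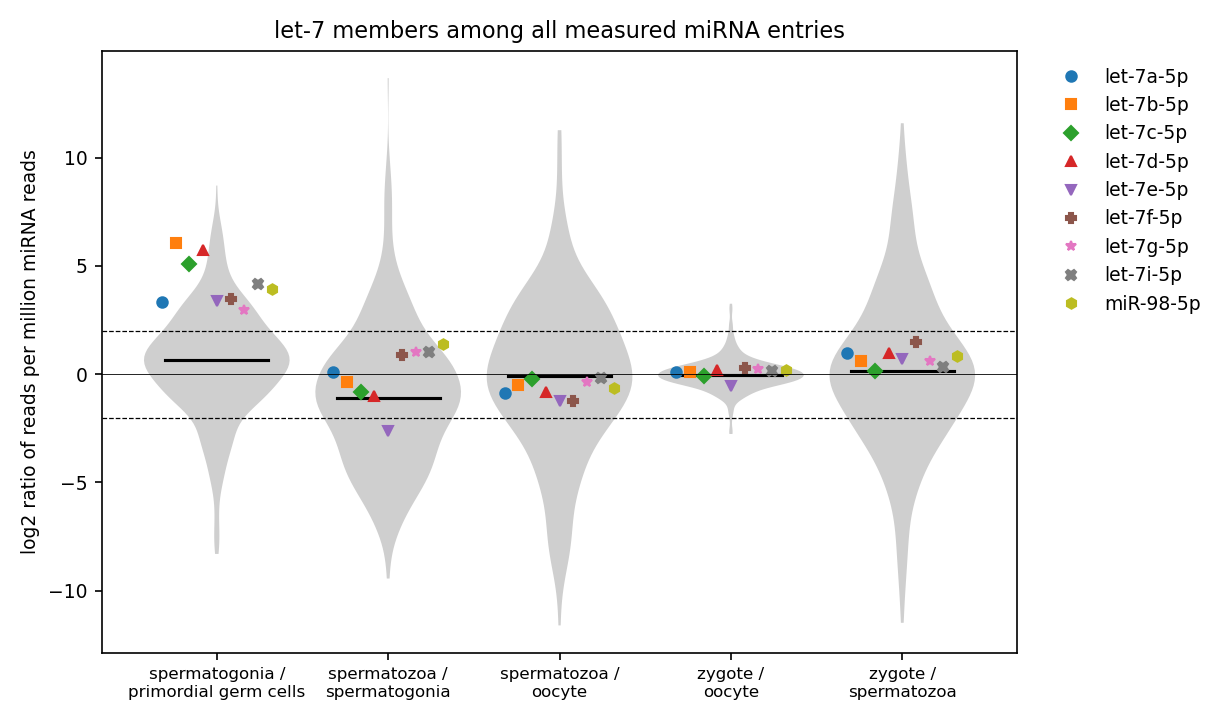
Log2 ratios of the 9 members (symbols) in the 5 comparisons over the distribution of all miRNAs with at least 100 reads over the pair (grey), whose median is the black bar; dashed lines mark 4-fold. All 9 symbols lie above the upper line for spermatogonia over primordial germ cells, and only let-7e-5p lies beyond a line elsewhere.

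The zygote was set against the oocyte and against spermatozoa, and the gametes against each other. Between zygote and oocyte none of the 9 members was 4-fold apart in either direction, as was the case for nearly all miRNAs there: 2.01% of 299 measured were past 4-fold on the high side and 1.34% on the low side. The family sum was 1.16-fold higher in the zygote [1.16 to 1.17], with 7 members higher and 2 lower and a median log2 ratio of 0.16 beside -0.01 for all measured miRNAs. let-7f-5p stood at 1.21-fold [1.21 to 1.22], let-7g-5p at 1.19-fold, miR-98-5p at 1.16-fold [1.10 to 1.22] and let-7d-5p at 1.13-fold. let-7c-5p was 1.06-fold lower [1.04 to 1.07] and let-7e-5p 1.44-fold lower [1.34 to 1.55]. Scaled to all 4 classes or with edgeR's factors only let-7e-5p stayed below the oocyte, and with the factor of the authors' normalised column, which raises every log2 ratio by 0.75, all 9 members were higher and the family ratio was 1.96. Relative to the other 8 members let-7e-5p was 1.68-fold lower in the zygote [1.56 to 1.81], a value that no scaling moves. The gonadal soma list summed to 15386 RPM in oocytes and 9808 in zygotes, with reads for all 4 entries, and its part in these ratios was not tested.

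In spermatozoa all 9 members were lower than in the oocyte, but none 4-fold (26.3% of 300 measured miRNAs were at least 4-fold lower, and 26.7% higher). The family was 1.85-fold lower in spermatozoa [1.84 to 1.86], and the median log2 ratio was -0.61 for the members beside -0.09 for all measured. let-7f-5p and let-7e-5p differed most, at 2.35-fold [2.33 to 2.37] and 2.39-fold [2.14 to 2.66] lower, and let-7i-5p least, at 1.12-fold [1.09 to 1.16]. Scaled to all 4 classes 7 of the 9 members were lower in spermatozoa and 2 higher. Marker lists differed between the same libraries. The erythroid list summed to 18886 RPM in sperm against 248.7, with 3 of 3 entries at least 4-fold higher and miR-144-3p at 0 reads in the oocyte. The smooth muscle list, nearly all miR-143-3p, summed to 230783 against 26563 RPM, with 1 of 2 measured entries past 4-fold (miR-143-3p). The endothelial list summed to 374.9 against 138.8 RPM, with 1 of 2. In the epithelial list 5 of 6 entries were at least 4-fold higher in spermatozoa. The leukocyte list summed to 3095 against 1414 RPM, with 4 of 5 at least 4-fold higher and miR-142-5p at 0 reads in the oocyte. Its other entry, miR-155-5p, was 28.5-fold lower in spermatozoa (48.5 against 1384 RPM). The gonadal soma list had a lower sum in sperm, 7416 against 15386 RPM, with 1 of 2 measured entries at least 4-fold lower (miR-202-5p, 57.3-fold). The part of these lists in the let-7 ratios was not tested.

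The zygote had more of all 9 members than spermatozoa under each scaling tried. Of the members 0 were at least 4-fold higher or lower, beside 26.3% and 25.6% of 308 measured miRNAs. The family sum was 2.15-fold higher in the zygote [2.14 to 2.17], or 1.55-fold without let-7f-5p, and the median log2 ratio was 0.72 for the members beside 0.13 for all measured. With edgeR's factors it was 3.39-fold and with the factor of the normalised column 4.17-fold, and with either 1 member was at least 4-fold higher, beside 32.5% and 34.1% of measured miRNAs, and 0 were lower, beside 18.2% and 15.6%. let-7f-5p was 2.84-fold higher [2.82 to 2.87], let-7d-5p 1.99-fold and let-7c-5p 1.12-fold [1.10 to 1.14]. In the zygote the erythroid list summed to 208.8 RPM, with 3 of 3 entries at least 4-fold lower than in spermatozoa. The smooth muscle list, again nearly all miR-143-3p, summed to 20992 RPM, with 2 of 2 measured entries at least 4-fold lower. In the epithelial list 4 of 6 and in the leukocyte list 4 of 5 were at least 4-fold lower, with miR-142-5p at 0 reads in the zygote. On the leukocyte list miR-155-5p went the other way, 32.0-fold higher at 1554 RPM in zygotes against 48.5 in sperm. The gonadal soma list summed to 9808 RPM in zygotes against 7416 in sperm, with 1 of 2 measured entries at least 4-fold higher. The part of these lists was not tested here either. The comparisons with the zygote and with spermatozoa share libraries and are not independent of each other.

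The other arms of the same precursors, the strands usually discarded, were counted in 12 entries. Their sum was 25.2 RPM in primordial germ cells, 512.8 in spermatogonia, 200.6 in sperm, 592.4 in oocytes and 418.6 in zygotes, so 5p reads outnumbered them from 172-fold in spermatogonia to 574-fold in the zygote. let-7d was the member with the largest 3p share: 10.3% of its reads in primordial germ cells [8.22 to 12.7], 10.3% in spermatogonia [9.96 to 10.6], 5.32% in sperm [4.36 to 6.43], 8.25% in oocytes [7.55 to 8.99] and 5.22% in zygotes [4.72 to 5.76]. The share was thus alike in fetal and postnatal germ cells, although both arms together were far scarcer in the former. let-7d-3p stood at 6.41 RPM in the former and 339.3 in the latter.

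miR-98 and let-7e behaved differently. miR-98-3p took 3.04% of miR-98 reads in the oocyte [2.44 to 3.75] and 2.08% in zygotes, against 0.783% in spermatogonia [0.521 to 1.13] and 0.187% in sperm. It had 0 reads in primordial germ cells, which allows a share of up to 1.15% by a floor of 3 counts and 1.41% by the exact interval. let-7e-3p took 3.36% of let-7e reads in primordial germ cells [2.69 to 4.15], 1.11% in spermatogonia and 1.11% in zygotes. It had 2 reads in the oocyte and 0 in sperm, where the same limits were 0.713% and 0.872%. let-7g-3p was almost missing, with 30 reads in primordial germ cells, 3 in oocytes and 7 in zygotes. It had 0 in sperm, with limits of 0.0124% and 0.0152%. Spermatogonia had 0 beside 105685 reads of let-7g-5p, with limits of 0.00284% and 0.00349%.

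**Figure D5:**
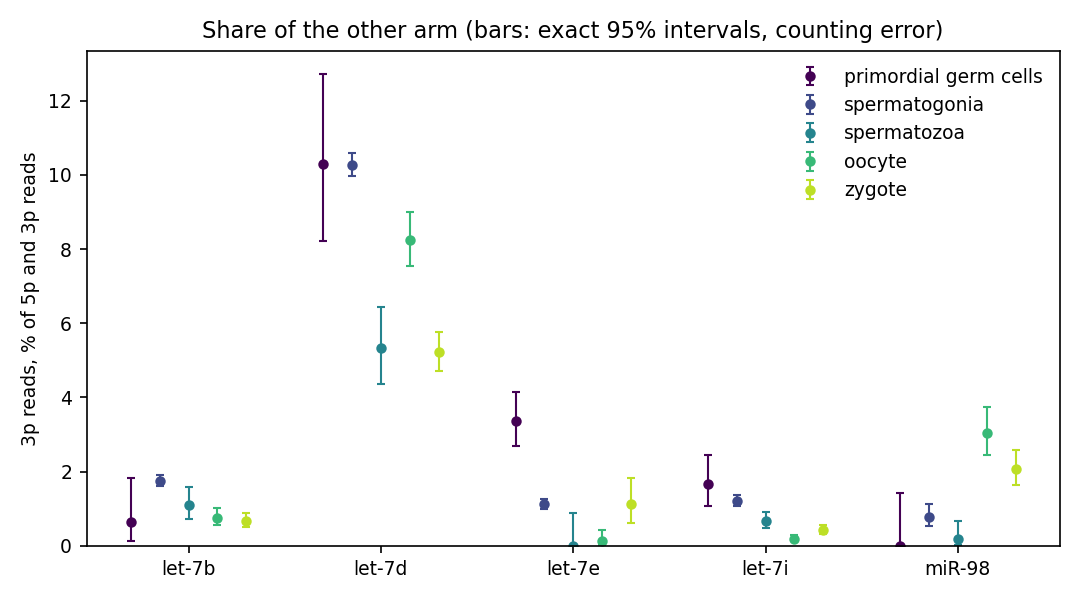
Percent of 3p reads among the 5p and 3p reads of 5 members that each have their own precursor, 1 point per library with exact 95% intervals for counting error. The let-7d shares lie between 5.22% and 10.3%, above all shares of the other 4 members.

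The other arms also tell apart precursors that give the same 5p sequence. The 5p arm of let-7f comes from 2 hairpins whose 3p arms differ. Of their 3p reads the let-7f-1 arm took 95.1% in spermatogonia (331 against 17 reads, [92.3 to 97.1]), 98.3% in oocytes (226 against 4, [95.6 to 99.5]) and 95.8% in zygotes (182 against 8, [91.9 to 98.2]). In spermatozoa it was 5 reads against 8, or 38.5% [13.9 to 68.4], and in primordial germ cells 3 against 0. The shares of 3p reads need not be those of the 5p arm. For let-7a and let-7c a full split is not possible. The arms of their other precursors, let-7a-2-3p and let-7c-1-3p, have entries of their own, with 34 and 67 reads in spermatogonia and 11 and 2 in oocytes. But let-7a-1-3p and let-7c-2-3p have the same sequence, and the tables give them nearly the same reads (161.5 and 159.5 in oocytes, 98.5 and 96.5 in zygotes, 163 each in spermatogonia).
let-7a-1-3p and let-7c-2-3p: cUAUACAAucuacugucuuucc

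The 12 precursors lie on 7 chromosomes of GRCm38, the assembly also called mm10. Mirlet7d (chromosome 13, 48536012 to 48536114), Mirlet7f-1 (48537829 to 48537917) and Mirlet7a-1 (48538179 to 48538272) lie on the minus strand within 2261 bases, in exons of the long noncoding RNA gene 6720427I07Rik. Mirlet7c-2 (chromosome 15, 85706603 to 85706697) and Mirlet7b (85707319 to 85707403) lie within 801 bases in an exon of Lncppara, and Mirlet7f-2 (chromosome X, 151912346 to 151912428) and Mir98 (151913214 to 151913321) within 976 bases in an intron of the ubiquitin ligase gene Huwe1. Mirlet7g (chromosome 9, 106178840 to 106178927) lies in an intron of Wdr82, Mirlet7e (chromosome 17, 17830352 to 17830444) in an intron of Spaca6, and Mirlet7c-1 (chromosome 16, 77599657 to 77599750) in an intron of Mir99ahg. Mirlet7a-2 (chromosome 9, 41536716 to 41536811) lies in introns of noncoding genes and Mirlet7i (chromosome 10, 122985640 to 122985724) in an exon of the transcribed pseudogene D630033A02Rik.

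Members with a precursor in the same cluster differed in their ratios. let-7d, which has 1 precursor in the chromosome 13 cluster, was 53.1-fold higher in spermatogonia than in primordial germ cells, whereas let-7f and let-7a, which have a precursor there and another elsewhere, were 11.3-fold and 10.04-fold higher. let-7b and let-7c of chromosome 15 were 66.9-fold and 34.1-fold higher. let-7c is also made on chromosome 16, so its 5p reads, like those of let-7a and let-7f, cannot be assigned to a place. Whether the 5p products of these clusters kept a fixed ratio therefore cannot be told. Of the 3p arms, let-7d-3p and let-7f-1-3p come from the chromosome 13 cluster alone. Their reads were 77 and 3 in primordial germ cells, 3616 and 331 in spermatogonia and 102 and 5 in sperm. In oocytes they were 472 and 226, and in zygotes 380 and 182. These arms thus did not keep a fixed ratio over the libraries, and why was not tested.

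LIN28 is known to bind the sequence GGAG in the terminal loop of let-7 precursors. GGAG was searched on the sense strand of the hairpins between the 5p and 3p arms. It occurs there in 8 of the 11 let-7 and miR-98 hairpins with both arms in the sequence table, and in 52 (8.07%) of all 644 mouse hairpins that could be scanned. Mirlet7a-2 was not scanned. The 3 without it are Mirlet7b, Mirlet7c-2 and Mir98. The hairpins of let-7d and let-7b, the members with the highest ratios of spermatogonia to primordial germ cells, are shown with GGAG between the arms in capitals.
Mirlet7d: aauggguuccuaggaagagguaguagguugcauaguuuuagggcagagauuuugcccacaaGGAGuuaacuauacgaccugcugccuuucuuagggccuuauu
Mirlet7b: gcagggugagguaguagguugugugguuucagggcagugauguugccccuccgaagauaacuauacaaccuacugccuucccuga
let-7d holds the letters and let-7b does not. This is a description of letters and says nothing of binding. Whether GGAG in this window goes with the ratios was not tested.

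Sequence relatives outside the family were counted apart. let-7j has the seed GAGGUAU, which departs from that of let-7 at its last base, and miR-202-3p, a miRNA of the gonads, has the same seed.
let-7j: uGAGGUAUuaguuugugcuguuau
miR-202-3p: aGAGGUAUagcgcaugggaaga
let-7j stood at 13.2 RPM in primordial germ cells, 265.4 in spermatogonia, 261.4 in sperm, 1137 in oocytes and 1110 in zygotes, so it was lowest where the family was lowest, and its 2 highest levels were those of the egg and the zygote. Over the 22 bases of let-7i-5p, let-7j differs from it only at the last base of the seed. The mismatches allowed are not given, so whether reads were shared between let-7i-5p and let-7j is not known. miR-202-3p had 13.0, 508.3, 3.29, 24.4 and 13.8 RPM in the same order of libraries and so peaked in spermatogonia. Its 5p arm, which lacks the seed, was far more abundant, with 14472.5 RPM in spermatogonia. let-7k, which has the let-7 seed, had at most 20.6 RPM in any library.

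Some groups of miRNAs tied to let-7 were described from lists. The first is the partners from the same clusters, miR-99a, miR-99b, miR-100, miR-125a and miR-125b (5p arms). Their sum was 13926 RPM in primordial germ cells, 25955 in spermatogonia, 2762 in sperm, 5255 in oocytes and 3129 in zygotes. In spermatogonia 3 of 5 were at least 4-fold higher than in primordial germ cells, beside 25.7% of measured miRNAs, and 0 lower, beside 12.6%. In spermatozoa 2 of 5 were at least 4-fold lower than in spermatogonia, a share near the 37.2% of all, and 0 higher, beside 14.9%. miR-99a-5p, which lies beside let-7c-1, was 15.2-fold higher in spermatogonia [14.3 to 16.0]. miR-99b-5p and miR-125a-5p, the neighbours of let-7e, were 1.51-fold and 3.15-fold higher there, beside 10.6-fold for let-7e-5p. From spermatogonia to spermatozoa they were 27.7-fold and 11.6-fold lower, beside 6.16-fold for let-7e-5p. Between oocyte and zygote 0 of 5 were 4-fold apart, as for nearly all miRNAs there (2.01% of 299 measured were higher and 1.34% lower). The median log2 ratio was -0.75, with values below the oocyte for all 5, that of miR-99a-5p within counting error. let-7e-5p was lower in the zygote too.

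The second list holds miRNAs known to target Lin28, miR-125a-5p, miR-125b-5p and miR-9-5p. Between primordial germ cells and spermatogonia 1 of these 3 was at least 4-fold higher in spermatogonia (miR-125b-5p, 8.11-fold) and 1 at least 4-fold lower (miR-9-5p, 31.5-fold, from 3698 to 117.3 RPM), beside 25.7% and 12.6% of measured miRNAs, so that 3 entries show little against the background. miR-9-5p is also on the neuron list. The third list holds 7 miRNAs of embryonic stem cells known to act against let-7, of the miR-290 and miR-302 clusters. They summed to 25622 RPM in primordial germ cells, 1162 in spermatogonia, 37.8 in sperm, 3651 in oocytes and 8452 in zygotes. Family reads were thus fewer than the reads of this list in primordial germ cells alone (6486 against 25622 RPM) and more in the other 4 libraries. All 5 measured of the 7 were at least 4-fold lower in spermatogonia than in primordial germ cells, as were 12.6% of all measured miRNAs, with miR-291a-3p at 14.3-fold and miR-295-3p at 33.0-fold. In the zygote miR-291a-3p stood 3.54-fold above the oocyte [3.40 to 3.67], beside 1.16-fold for the let-7 family. The other measured entries of this list stood lower, at 1.01-fold to 1.41-fold. The median log2 ratio of its 4 measured entries was 0.42, and the list sum stood at 2.31-fold.

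The miRNAs whose levels ran most like the family sum were found among 238 entries outside these lists with at least 10 reads in each library and at least 100 RPM in 1 or more. Likeness was the root mean square difference of log2 RPM over the 5 libraries, each profile centred on its mean. miR-672-5p was closest at 0.27, with 11.2 RPM in primordial germ cells, 215.5 in spermatogonia, 212.9 in sperm, 615.8 in oocytes and 542.3 in zygotes. The next were miR-1a-3p at 0.87, miR-135a-5p at 0.95, miR-3084-5p at 1.00 and miR-30c-5p at 1.01. By the same measure let-7a-5p lay 0.28 from the family sum, and let-7e-5p, the member least like it, 1.56, with 32 of the 238 entries closer to the sum than it was. Each member is part of the sum, unlike the 238 entries, so abundant members lie near it partly by construction. The 5 points of each profile share their libraries and totals, so this is a description only.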

How the data were processed

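Per the labels' protocols, RNA was extracted with TRIzol and reads of 18 to 32 nucleotides were obtained from Illumina libraries. The submitters' processing notes list Bowtie 0.12.7, DESeq and mm10 and assign them no roles. Mismatches and multiple matches: not given in the sources used here. The read columns hold expected counts as deposited by the authors, many with fractions. The other column is a signal named TMM per the file headers, and it equals reads times 1 factor per library. In the spermatogonia miRNA table the deposited reads are all whole, while the normalised column divided by its factor (0.672) differs from them by more than 0.1 reads for 124 of 963 entries with reads and by at most 0.507, as rounding would give.

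Reads were scaled to the miRNA total of the library (RPM). To both reads of a log2 ratio 0.5 was added. Entries whose reads in a pair summed to 100 or more were measured, and those 4-fold or more apart were counted. Intervals are exact (Poisson, Clopper-Pearson, or the conditional interval of 2 counts) at 95%, on rounded reads; 3 counts set the floor, from 0.250 RPM in primordial germ cells to 2.47 in spermatozoa. Totals of all 4 classes leave out 6 snoRNA entries that name no single snoRNA (0.551% to 4.59% of that file's reads). The ratio, interval and call code was tested on simulated data. Alternative scalings came from edgeR 4.0.16 (TMM) and from DESeq2 1.42.0 (size factors). Figures and tables used Python 3.11.15. Sequences are from RefSeq (GRCm38.p6), overlapping genes from GENCODE on GRCm38. Members, their other arms, relatives, partners and marker lists, and the 5 most alike miRNAs by the stated rule, are the entries named. The members and lists were chosen with earlier results of these data known.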

Additional observations from a re-analysis of the deposited data

How the results depend on the processing

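Ratios of the family sum are given in the order spermatogonia to primordial germ cells, spermatozoa to spermatogonia, spermatozoa to oocyte, zygote to oocyte and zygote to spermatozoa. As reported they were 13.6, 1.27, 0.540, 1.16 and 2.15. Scaled to all 4 classes they were 12.2, 0.175, 0.647, 1.34 and 2.08. With edgeR's TMM factors they were 8.70, 1.36, 0.364, 1.23 and 3.39, and with DESeq2's size factors 8.88, 1.88, 0.481, 1.19 and 2.47. Totals without the 17 pooled most abundant miRNAs, 3 of them members, gave 11.4, 1.62, 0.444, 1.12 and 2.52. Totals without the 9 members gave 14.8, 1.30, 0.482, 1.21 and 2.52, and the authors' normalised column 8.28, 0.290, 0.470, 1.96 and 4.17. Without let-7f-5p in the sum they were 15.04, 0.999, 0.704, 1.09 and 1.55. The direction turned only for spermatozoa to spermatogonia, under all 4 classes, the normalised column and, at 0.999, without let-7f-5p. From spermatogonia to spermatozoa, the 1 member past 4-fold on the low side became 5 with all 4 classes and 5 with the normalised column. For members at least 4-fold higher in the zygote than in spermatozoa, 0 became 1 with edgeR's factors and 1 with the normalised column. Adding the other arms moved the let-7f-5p share of family reads to 32.1% in spermatogonia and 58.9% in the oocyte. Reads of spermatogonia taken from the normalised column, chosen after seeing the data, kept each value within its counting interval. Of 405 member ratios under alternatives 247 left their counting interval and 0 of those at least 4-fold apart turned direction. Leaving out a replicate was not possible with 1 library per cell type, and the shifts follow by construction from another denominator or, without let-7f-5p or with the other arms, from another sum. No paired analysis was possible because each cell type has 1 library and the labels carry no replicate numbers. Depth limits the 3p arms most, which rest on as few as 0 to 3 reads.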
